A study of Arabidopsis thaliana with 8 samples.

Results

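The salt response of serk1-1 seeds was set against that of wild-type seeds, gene by gene, in 8 of the 8 libraries of the series. For each gene the salt effect is the level with NaCl minus the level without it, on log2(FPKM + 1), where FPKM are fragment counts corrected for transcript length and library size. The difference described here is the salt effect in serk1-1 minus the salt effect in Col-0, taken from the group means and once for each replicate number, and again in plain FPKM. All 8 libraries come from Arabidopsis thaliana seeds of the Columbia ecotype imbibed for 24 h in liquid Murashige and Skoog medium. The 4 groups are the Col-0 wild type and the serk1-1 mutant, each without added NaCl and with 200 mM NaCl, with 2 libraries in each. Titles of the serk1-1 samples contain "wild type" as well, and the genotype label was followed instead. No label gives the kind of mutation, whether the line was backcrossed or whether several seed batches were used. The libraries are called biological replicates in the labels, and the p-values measure the spread between them.

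Somatic embryogenesis receptor-like kinases (SERKs) are plasma membrane receptor kinases that act as co-receptors for brassinosteroid and for peptide signals in development and immunity. A seed that takes up water clears transcripts stored from maturation, such as those of storage proteins and late embryogenesis abundant (LEA) proteins, and builds up those of growth. Salt slows this through osmotic and ionic stress and through abscisic acid (ABA), the hormone that holds germination back and whose breakdown lets it proceed. Sodium is moved out of cells by the salt overly sensitive (SOS) pathway, in which the calcium sensor SOS3 and the kinase SOS2 activate the exchanger SOS1. The series' title names these SOS components in germination under saline conditions.

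SERK1 itself was weakly listed in all groups. It stood at 2.70 and 1.59 FPKM in Col-0 without NaCl, at 2.40 and 1.06 with NaCl, at 1.53 and 1.40 in serk1-1 without NaCl, and at 1.12 and 1.05 with NaCl. The ranges of the genotypes overlap, so the level of SERK1 gives no check of the genotype labels. Its salt effects were -0.23 in Col-0 and -0.24 in serk1-1, and their difference was -0.02 ± 0.47 (SE), which turned to 0.06 with median-of-ratios scaling and to 0.12 with quantile normalization.

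Library totals lay between 777936 and 821247 FPKM in the Col-0 group of libraries, and serk1-1 libraries held 885375 to 901215. Depth is unknown because FPKM hold no counts. Seed coat markers summed to at most 1.57 FPKM and root hair markers to at most 0.03 in any library, while storage transcripts summed to 5996 FPKM or more. These are whole seeds, in which fewer cells of a type and less RNA per cell cannot be told apart.

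Across the transcriptome the salt effects were spread more widely in Col-0 than in serk1-1. The middle 50% of the 15336 genes tested, which reached 1 FPKM in 2 or more libraries, spanned 0.53 log2 units in Col-0 and 0.38 in serk1-1. In Col-0, 576 genes lay above 1 log2 unit and 217 below -1. In serk1-1 the counts were 88 and 146. Taken by replicate number, 1205 and 748 genes lay beyond 1 log2 unit in Col-0, and 338 and 270 in serk1-1. The absolute salt effect was larger in Col-0 in 63.7% of genes, a share that went down to 49.6% without serk1-1 control replicate 2 and to 51.6% without serk1-1 NaCl replicate 1. The wider middle range in Col-0 was kept under every alternative run, though the ranges came close in some. They were 0.54 in Col-0 and 0.50 in serk1-1 without serk1-1 control replicate 2, and 0.53 and 0.47 without serk1-1 NaCl replicate 1.

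No gene passed the test of the difference at an adjusted p under 0.05, by limma with Benjamini-Hochberg adjustment over all genes tested (0 of 15336 genes, 0%). The smallest adjusted p was 0.99994. At an unadjusted p under 0.05 there were 165 genes (1.08% of those tested), 151 with the lower salt effect in serk1-1 and 14 with the higher. If no gene differed, a share of 0.05 would be awaited there, which is more than was seen. Nothing is therefore read from these counts, and an unadjusted p given for a gene below only describes it. The median standard error of a difference was 0.42 log2 units, an unadjusted 95% interval of 0.98 to either side. This fit gives the replicate numbers no role. Most differences of less than about 1 log2 unit were not detectable in it even before adjustment. Larger ones did not pass after adjustment either, such as -2.62 in AT5G35688 and 2.59 in AT3G06895. In the salt effects of the same fit, 7 genes passed in Col-0 (0.0456%) and 0 in serk1-1 (0%), with 1740 and 661 at an unadjusted p under 0.05. These counts, and the 165 for the difference, depend on leaving the replicate numbers out. A limma fit that allowed for them passed 1101 genes in Col-0 and 12 in serk1-1. For the difference it passed 0, with 775 at an unadjusted p under 0.05. The labels do not tie a number to a batch, so the fit without them was kept.

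A description that does not use the replicate numbers compared all 4 pairwise NaCl-minus-control values of each genotype. They come from 2 libraries a group and are not 4 independent values. All 4 serk1-1 values lay below all 4 Col-0 values in 986 genes (6.43% of those tested) and above them in 225 (1.47%). These 1-sided counts depend on the scaling, since the median difference of all genes was -0.11 and moved to 0.01 with median-of-ratios scaling, where the counts were 641 and 475, and to 0.02 with quantile normalization, where they were 644 and 795. The log2 difference was below 0 in 66.8% of genes and above 0 in 33.2%, and the FPKM difference in 66.2% and 33.8%. The share below 0 in log2 units was 49.2% with median-of-ratios scaling and 47.0% with quantile normalization. Values below are therefore to be read beside the all-gene median of -0.11.

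Of the 986 genes lower in their salt effect in serk1-1, 886 had a Col-0 salt effect above 0, against 55.0% of all genes tested. In 449 of the 986 both salt effects were above 0, and in 435 they were of unlike sign. Without NaCl, 780 of the 986 stood higher in serk1-1 than in Col-0, against 41.6% of all genes tested, and in 660 the gap between the genotypes was narrower with NaCl than without it, against 52.6% of all genes. Among the 225 in the other direction, 206 had a Col-0 salt effect below 0, against 45.0% of all genes tested. A narrower gap with NaCl was found in 157 of them, against 52.6% of all genes. The Col-0 salt effect and the gap without NaCl are terms of the difference by which both sets were selected, so the selection favours these counts, and nothing is read from them. In 412 of the 986 and 116 of the 225, the genotypes lay within 0.5 log2 units of each other without NaCl, against 53.6% of all genes tested.

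**Figure D1:**
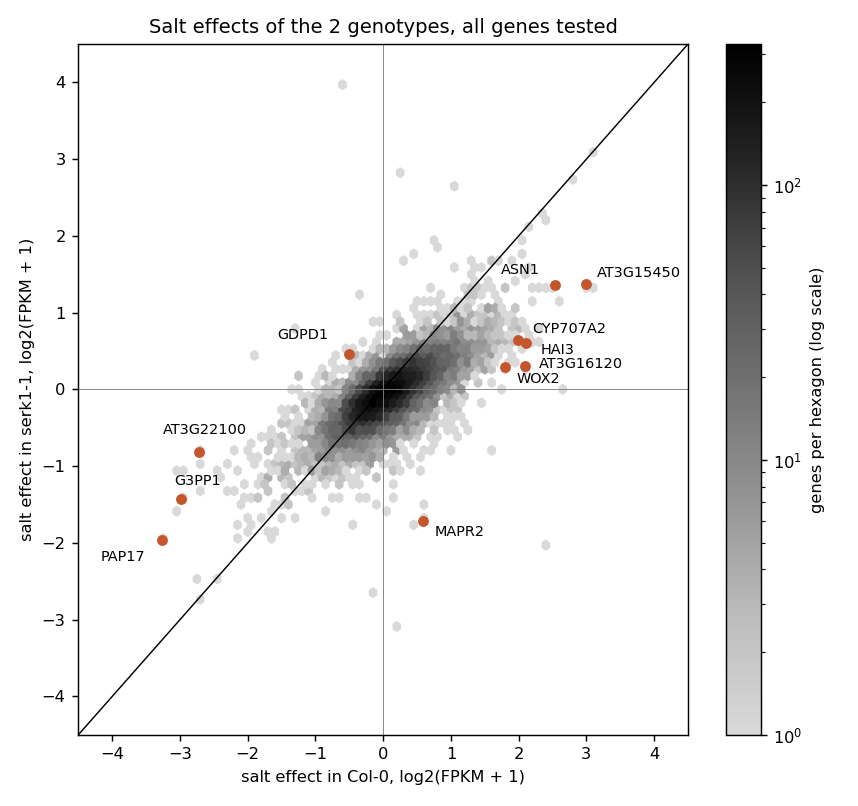
Salt effect in serk1-1 (vertical axis) against that in Col-0 (horizontal axis), both as differences of group means of log2(FPKM + 1), for the 15336 genes tested; grey hexagons give the number of genes on a log scale, the diagonal marks equal effects, orange points are named genes, and 3 genes lie outside the axes. The cloud is wider along the Col-0 axis, and PAP17, G3PP1, AT3G15450 and WOX2 lie far out in Col-0 and nearer to 0 in serk1-1.

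Genes that started alike in both genotypes included WOX2 and CYP707A2. WOX2, a homeobox transcription factor of the early embryo's apical lineage, stood at 7.62 and 6.05 FPKM in Col-0 without NaCl and at 25.7 and 26.8 with NaCl. The serk1-1 values were 5.21 and 5.08 FPKM without NaCl and at 7.01 and 6.06 with NaCl. The Col-0 libraries with NaCl stand alone above all the others, and the serk1-1 libraries with NaCl overlap Col-0 without it. The salt effects of WOX2 were 1.80 and 0.29, and their difference was -1.51 ± 0.30 (SE; -1.26 and -1.76 by replicate number; unadjusted p = 0.00133 by limma). In FPKM the difference was -18.0.

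CYP707A2, the hydroxylase that breaks down ABA in imbibed seeds, stood at 2.64 and 2.44 FPKM in Col-0 without NaCl and at 13.8 and 12.4 with NaCl. In serk1-1 the values were 1.77 and 2.44 without NaCl and 4.06 and 3.58 with NaCl. All serk1-1 libraries lie below both Col-0 libraries with NaCl, and the control groups overlap. The difference was -1.35 ± 0.34 (SE; unadjusted p = 0.00471 by limma), with -1.15 and -1.55 by replicate number and -8.86 in FPKM. Under the alternatives the difference ran from -1.51 to -1.20 in CYP707A2 and from -1.66 to -1.37 in WOX2. The paralogue CYP707A3 was low, at up to 3.78 FPKM in Col-0 with NaCl and at most 0.32 in serk1-1.

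Other genes of this kind, within 0.5 log2 units between the genotypes without NaCl, were picked by size after values had been seen. The cytochrome P450 gene CYP71B12 stood at 2.48 and 1.1 FPKM in Col-0 without NaCl and at 13.1 and 6.26 with NaCl, against 1.68 and 1.84, then 3.24 and 2.99, in serk1-1. AT5G22270, a gene of uncharacterised product, stood at 1.21 and 0.92 FPKM, then 10.9 and 4.96, in Col-0 and at 1.88 and 1.27, then 2.74 and 2.55, in serk1-1. AT5G57887, also uncharacterised, stood at 6.84 and 7.45 FPKM, then 15.9 and 13.7, in Col-0 and at 8.93 and 6.42, then 6.71 and 4.78, in serk1-1. In each of the 3 genes both Col-0 libraries with NaCl stand above the other 6 libraries, as the selection favours. The differences were -1.33, -1.52 and -1.32. AT5G35688 was listed at 0 in all libraries but those of Col-0 with NaCl, where it stood at 4.19 and 6.32 FPKM. It had the smallest p of the difference (0.000232 unadjusted, by limma), it overlaps AT5G35690, and a fold against groups at 0 is not given.

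Genes alike without NaCl also occur on the other side, at smaller sizes. The ethylene receptor gene ETR2 stood at 57.7 and 46.3 FPKM in Col-0 without NaCl and at 19.9 and 37.9 with NaCl, while in serk1-1 it stood at 46.3 and 41.3, then 42.6 and 44.0. TET2, a tetraspanin, stood at 5.99 and 6.24 FPKM, then 2.98 and 3.75, in Col-0 and at 4.51 and 5.21, then 6.08 and 4.73, in serk1-1. The Col-0 libraries with NaCl are the lowest of all in both genes, which the selection favours as well. Differences were 0.87 ± 0.41 for ETR2 and 0.83 ± 0.34 for TET2 (SE).

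**Figure D2:**
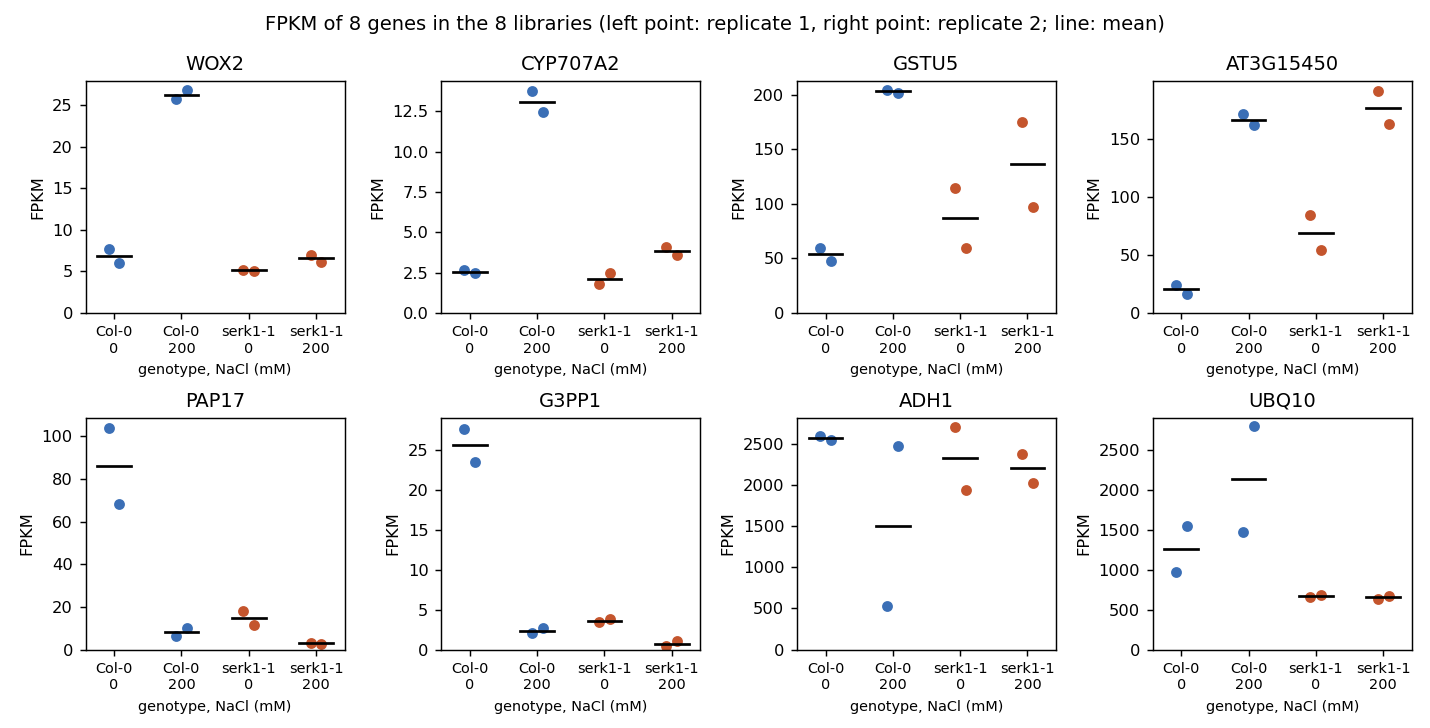
FPKM (vertical axes, from 0) of 8 genes in the 4 groups, by genotype and NaCl concentration in mM; points are libraries (left replicate 1, right replicate 2) and lines are group means. WOX2 and CYP707A2 are high only in Col-0 with NaCl among these groups, AT3G15450 meets the same level in both genotypes with NaCl, PAP17 and G3PP1 are high in Col-0 without NaCl, and ADH1 is low in 1 library, replicate 1 of Col-0 with NaCl, at 527 FPKM.

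Most genes of sugar starvation had a log2 difference below 0, while in FPKM the list was split. AT3G15450 and ASN1 stood higher in serk1-1 without NaCl. AT3G15450, annotated as aluminium-induced, stood at 24.2 and 16.4 FPKM in Col-0 without NaCl and at 171 and 161 with NaCl. In serk1-1 it stood at 83.9 and 54.5 without NaCl and at 191 and 162 with NaCl. The genotypes do not overlap without NaCl and do overlap with it, the gap going from 1.71 to 0.08 log2 units. The gene rose in Col-0 (adjusted p = 0.0332 by limma), and its difference was -1.63 ± 0.38 (SE), or -38.4 in FPKM.

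ASN1, an asparagine synthetase that stores nitrogen when sugar is short, stood at 4.85 and 4.46 FPKM in Col-0 without NaCl and at 36.8 and 27.2 with NaCl, where it rose (adjusted p = 0.0491 by limma). The serk1-1 libraries stood at 18.9 and 30.3 FPKM, then at 59.4 and 67.1. Both serk1-1 groups lie above the Col-0 group of the same medium. Its difference depends on the scale, with -1.17 ± 0.38 (SE) in log2 units and 11.3 in FPKM. DIN2, a beta-glucosidase of dark-induced leaves, stood at 3.48 and 3.05 FPKM, then 11.9 and 10.9, in Col-0, and at 0.53 and 0.67, then 1.02 and 0.87, in serk1-1, which is low in all 4 libraries. Its difference was -1.26 ± 0.34 (SE).

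Over the sugar starvation list 12 of the 14 genes tested had a difference below 0, as had 66.8% of all genes tested. The list's median was -0.52 beside -0.11 for all genes. In FPKM 8 lay below 0 and 6 above, beside 66.2% and 33.8% of all genes. The summed FPKM of the 15 listed genes gained more in serk1-1, by 56.1 and 44.5 FPKM in replicate numbers 1 and 2. By replicate number the medians were -0.49 and -0.55. None of the 14 passed the adjusted test. Separated salt effects with serk1-1 below Col-0 were found in 4 of them, beside 6.43% of all genes tested. The list's median was -0.14 without Col-0 control replicate 1 and -0.27 without Col-0 NaCl replicate 2. DIN10, a raffinose synthase family gene, went the other way at 1.31 ± 0.83 (SE). Its values were 33.6 and 17.7 FPKM, then 4.31 and 3.09, in Col-0 and 9.69 and 3, then 3.58 and 0.93, in serk1-1.

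Phosphate starvation genes formed the list with the highest median difference, 0.42 beside -0.11 for all genes (0.69 and 0.46 by replicate number). Of its 11 genes tested, 9 lay above 0, as did 33.2% of all genes tested. This list, like the others, was chosen with earlier results of these data known, so its rank and median describe it and test nothing. Under all 3 other scalings the median was higher, from 0.46 to 0.61, leaving out a library gave 0.33 to 0.53, and without a filter on low values it was 0.20. PAP17, a purple acid phosphatase that releases phosphate, fell with NaCl in Col-0 from 104 and 68.1 FPKM to 6.11 and 10.1 (adjusted p = 0.0491 by limma). In serk1-1 it stood at 18.3 and 11.3 without NaCl and at 3.14 and 2.80 with NaCl. The Col-0 libraries without NaCl are far above the rest, and serk1-1 without NaCl stands a little above Col-0 with NaCl. The difference was 1.3 ± 0.48 (SE), or 66.0 in FPKM.

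G3PP1, a putative glycerol-3-phosphate transporter, fell in Col-0 from 27.7 and 23.55 FPKM to 2.08 and 2.69 (adjusted p = 0.0332 by limma). In serk1-1 it stood at 3.42 and 3.84 FPKM, then at 0.46 and 1.01. No group overlaps another, and the difference was 1.55 ± 0.38 (SE; 1.62 and 1.47 by replicate number). The serk1-1 values with NaCl lie near the pseudocount of 1, so the fall is understated more in serk1-1 than in Col-0. SPX1, a sensor that restrains the phosphate starvation response, stood at 56.5 and 90.5 FPKM, then 12.5 and 24.8, in Col-0 and at 24.2 and 13.2, then 11.8 and 9.98, in serk1-1, a difference of 1.28. Summed over all 21 listed genes, the Col-0 libraries stood at 349 and 374 FPKM without NaCl and at 165 and 191 with it. The serk1-1 sums were 191 and 185, then 150.5 and 154. The serk1-1 libraries without NaCl thus stand at the upper end of Col-0 with NaCl, while SPX2 and PHR1, the list's other 2 genes, had differences of -0.42 and -0.13.

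Further genes had a higher salt effect in serk1-1 than in Col-0. AT3G22100, a bHLH family protein, stood at 62.1 and 65.0 FPKM, then 10.3 and 7.51, in Col-0 and at 5.75 and 1.12, then 2.45 and 0.33, in serk1-1. Its 2 serk1-1 libraries of each medium lie far apart, and the difference was 1.89 ± 0.85 (SE). AT4G31760, a peroxidase family gene, had salt effects of -2.49 in Col-0 and -1.03 in serk1-1 and a difference of 1.46 ± 0.69 (SE). It stood at 9.19 and 8.82 FPKM, then 0.03 and 2.09, in Col-0 and at 2.56 and 3.41, then 0.74 and 1.16, in serk1-1. AT4G26460, a methyltransferase family gene, had -1.48 and -0.23 and a difference of 1.26 ± 0.52 (SE). Its values were 6.12 and 8.2 FPKM, then 1.79 and 2.01, in Col-0. In serk1-1 they were 0.87 and 0.33, then 0.82 and 0, a floor from which a fall can hardly show. ACR7, an ACT domain protein, had -0.98 and 0.09 and a difference of 1.07 ± 0.51 (SE). AT3G06895 had salt effects of 0.26 in Col-0 and 2.85 in serk1-1. It was listed at 0 in both serk1-1 libraries without NaCl, at 6.98 and 5.50 FPKM in those with NaCl and at 4.82 to 10.7 in Col-0, and it overlaps AT3G06900.

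Among genes of mitochondrial and oxidative stress, GSTU5, a glutathione transferase, stood at 59.4 and 47.7 FPKM in Col-0 without NaCl and at 205 and 201 with NaCl. The values of serk1-1 were 115 and 59.1, then at 175 and 97.2, so that the serk1-1 media overlap and the Col-0 media do not. The difference was -1.25 ± 0.52 (SE). GLYI7, a glyoxalase I family protein, rose in Col-0 from 8.96 and 10.2 FPKM to 40.2 and 34.8 (adjusted p = 0.0479 by limma). The serk1-1 libraries held 20.3 and 17.9 without NaCl and at 37.9 and 36.7 with it, inside the Col-0 range for that medium, and its difference was -0.93 ± 0.26 (SE). Of the 18 genes of the list tested, 15 lay below 0, as did 66.8% of all genes tested. The list's median was -0.41 (-0.63 and -0.13 by replicate number). This median became -0.01 without Col-0 NaCl replicate 1 and -0.14 without Col-0 control replicate 2. It was -0.20 without serk1-1 control replicate 1 and -0.22 without serk1-1 NaCl replicate 2.

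All 7 genes that passed in Col-0 had a smaller absolute salt effect in serk1-1, 6 with the same sign and 6 with separated values. They were chosen on their Col-0 values, so these counts describe them and test nothing. The exception in separation was AT4G30097, of uncharacterised product, listed at 0 in all 4 libraries without NaCl and with NaCl at 8.78 and 6.68 FPKM in the wild type and 8.41 and 6.22 FPKM in the mutant. The genotypes overlap with NaCl, and the locus overlaps AT4G30100.

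AT3G16120, a dynein light chain family gene, had the largest genotype gap without NaCl among the 5 genes with the smallest p. It stood at 3.92 and 3.09 FPKM in Col-0 without NaCl and at 21.6 and 15.1 with NaCl, against 34.9 and 44.8, then 46.0 and 52.2, in serk1-1. Every serk1-1 library lies above every Col-0 library. The difference was -1.78 ± 0.35 (SE; unadjusted p = 0.00105 by limma), and it was -5.56 in FPKM. The RING/U-box gene AT1G26800 and the zinc finger gene COL5 had differences of -1.68 ± 0.79 and -1.67 ± 0.59 (SE). Their mean gaps with NaCl were 0.12 and -0.24, but single libraries lay apart. With NaCl, AT1G26800 stood at 39.9 and 38.9 FPKM in Col-0 and at 67.8 and 27.2 in serk1-1. Its serk1-1 libraries without NaCl stood at 72.5 and 23.9. COL5 with NaCl stood at 12.0 and 10.25 FPKM in Col-0 and at 13.1 and 6.43 in serk1-1. AT5G44060 stood at 1.79 and 0.77 FPKM, then 16.1 and 6.05, in Col-0 and at no more than 1.97 in serk1-1.

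Salt effects of opposite sign, with all 4 values of a genotype on its side of 0, were found in 122 genes that were up in Col-0 and down in serk1-1 (0.796% of genes tested) and in 20 of the reverse kind (0.130%). With median-of-ratios scaling both counts were near each other, at 70 and 65, and with quantile normalization they were 65 and 89. Of the 122 genes, 113 stood higher in serk1-1 without NaCl, a count that the selection favours as well. None passed the adjusted test.

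MEE59, named for a maternal effect on embryo arrest, stood at 9.01 and 6.10 FPKM, then 12.3 and 10.1, in Col-0 and at 24.5 and 24.2, then 17.5 and 15.6, in serk1-1. MAF3, a MADS-box factor related to the flowering repressor FLC, stood at 3.87 and 3.14 FPKM, then 8.2 and 4.52, in Col-0 and at 10.9 and 8.31, then 7.22 and 6.32, in serk1-1. The genotypes do not overlap without NaCl in either gene and come closer with it. ABF4, a bZIP factor that binds ABA response elements, stood at 5.96 and 3.70 FPKM, then 9.05 and 7.39, in Col-0 and in serk1-1 at 25.7 and 25.8 without NaCl, with a mean of 22.8 ± 1.12 (SD, n = 2) with NaCl, so that serk1-1 is higher in both media. The differences were -1.06, -1.11 and -0.85.

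Of the reverse kind, GDPD1, a glycerophosphodiester phosphodiesterase of phosphate recycling, stood at 10.2 and 15.6 FPKM, then 8.37 and 8.92, in Col-0 and at 13.5 and 15.73, then 19.6 and 21.4, in serk1-1. YAB3, a YABBY factor of lateral organ polarity, stood at 14.5 and 14.2 FPKM, then 11.6 and 11.1, in Col-0 and at 13.4 and 14.7, then 15.4 and 18.0, in serk1-1. In both genes the controls of the genotypes overlap, and with NaCl serk1-1 is the higher. AT5G07380, uncharacterised, and AT3G11460, a pentatricopeptide repeat protein, show the same order, with differences of 0.93 and 0.68 beside 0.96 for GDPD1 and 0.55 for YAB3. MAPR2, a membrane-associated progesterone-binding protein, had the widest spread, at 4.1 and 3.91 FPKM, then 6.45 and 6.64, in Col-0 and at 9.20 and 4.30, then 3.94 and 0.01, in serk1-1. Its difference was -2.31 ± 0.96 (SE), and -1.17 without serk1-1 NaCl replicate 2, the library at 0.01 FPKM.

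**Figure D3:**
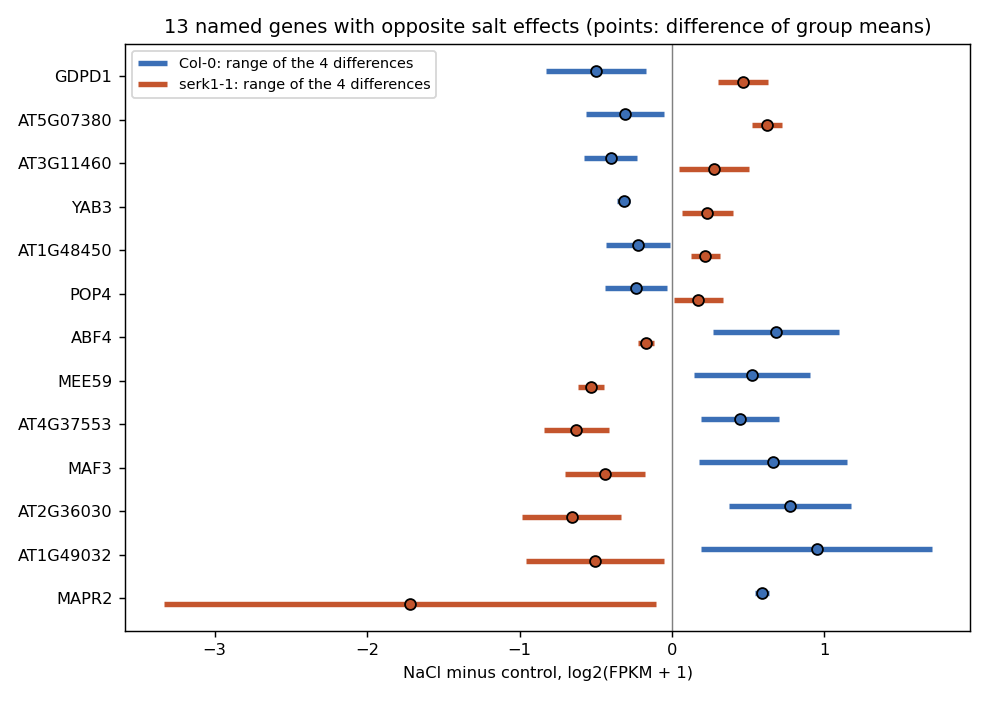
Salt effects on log2(FPKM + 1) (horizontal axis) of the 13 named genes whose NaCl-minus-control values lie on opposite sides of 0 in the 2 genotypes; bars span the 4 pairwise values of a genotype and points are differences of group means. YAB3 has the narrowest Col-0 bar among the genes down in Col-0, and MAPR2 in serk1-1 has the widest bar, down to -3.34.

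The scale changed the sign of the difference in some genes. In 183 genes (1.19% of genes tested) the log2 difference was below 0 and the FPKM difference above 0 in both replicate numbers, and in 47 genes (0.306%) the reverse held. Of the 183, 141 stood higher in serk1-1 without NaCl, as the selection favours. Of the genes tested, 5984 lay below 0 and 2179 above 0 on both scales in both replicate numbers.

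ECP31, a seed maturation protein of the LEA class, stood at 91.9 and 180 FPKM in Col-0 without NaCl and at 442 and 573 with NaCl, and in serk1-1 at 745 and 963, then 1873 and 1718. Every serk1-1 library lies above every Col-0 library. Its salt effects were 1.96 and 1.08 log2 units, a difference of -0.88 ± 0.49 (SE), while the difference was 570 in FPKM. M10, a LEA protein, stood at 294 and 430 FPKM, then 855 and 1091, in Col-0 and at 1747 and 2916, then 3419 and 4169, in serk1-1, with a log2 difference of -0.70 and an FPKM difference of 851. CAT3, a catalase, had -0.80 in log2 units and 304 in FPKM. Of the 30 LEA and dehydrin genes tested, 28 lay below 0 in log2 units and 17 above 0 in FPKM. Over all genes tested these shares were 66.8% and 33.8%. The list's median was -0.46 (-0.47 and -0.44 by replicate number) beside -0.11 for all genes, and no scaling brought it above -0.35, while it was -0.19 without Col-0 NaCl replicate 1 and -0.23 without serk1-1 NaCl replicate 2.

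EM1 and EM6, LEA genes controlled by ABI5, showed the same 2 signs. EM1 stood at 137 and 118 FPKM, then 430 and 286, in Col-0 and at 812 and 1111, then 1347 and 1577, in serk1-1. The log2 differences were -0.84 ± 0.40 for EM1 and -0.65 ± 0.62 for EM6 (SE), and the FPKM differences were 270 and 620. XERO1, a dehydrin, had a log2 difference of -0.87 ± 0.33 (SE), and LEA18 had -0.96 ± 0.48. Their FPKM differences were 10.1 (81.2 and -61.0 by replicate number) and -450 (95.7 and -995), without a common sign in the replicate numbers.

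The 5 largest FPKM differences above 0 were those of SESA5, RAB18, PAP85, AT1G68250 and CRC, of which SESA5, PAP85 and CRC are seed storage genes. SESA5, a 2S albumin, stood at 376 and 755 FPKM, then 1278 and 2105, in Col-0 and at 3167 and 5707, then 7373 and 10731, in serk1-1. Its FPKM difference was 3489 (3303 and 3674 by replicate number), and its log2 difference was -0.56 ± 0.72 (SE). RAB18, an ABA-responsive dehydrin, followed with 3248 FPKM and -0.22 ± 0.71 log2 units, PAP85, a cupin, with 2270 FPKM and -0.25 ± 1.49, AT1G68250, of uncharacterised product, with 2180 FPKM and -0.50 ± 0.56, and CRC, a 12S cruciferin, with 1982 FPKM and -0.34 ± 0.83. The log2 values of RAB18, PAP85 and CRC change sign when single libraries are left out. Among storage and oil body genes, 15 of the 17 tested lay below 0 in log2 units and 14 above 0 in FPKM, beside 66.8% and 33.8% of all genes. Their median of -0.35 log2 units became 0.04 without Col-0 control replicate 1 and -0.09 without Col-0 NaCl replicate 2. Summed, the listed genes stood at 5996 and 11197 FPKM, then 10098 and 20234, in Col-0 and at 32073 and 51726, then 46371 and 70465, in serk1-1. Storage sums thus stand higher in serk1-1 in both media. The endosperm markers did not share 1 direction between the genotypes. EPR1, an extensin of the endosperm, stood at 177 to 250 FPKM in the 4 Col-0 libraries and at 1355 to 1989 in the 4 of serk1-1, and it makes up most of the list's sum in serk1-1. EXPA2, an expansin of the endosperm, was lower in serk1-1, with 636 and 256.3 FPKM, then 215 and 72.5, in Col-0 and 89.1 and 61.5, then 21.1 and 15.6, in serk1-1. MAN7 had mean gaps of -0.32 without NaCl and -0.09 with NaCl (log2, serk1-1 minus Col-0), ABCG31 had 0.45 and 0.26, and CYP707A2 is given above. The part of these markers in the differences was not tested. SESA4 was the storage gene with separated log2 effects, at -0.86 ± 0.33 (SE), together with OLEO3, an oleosin, at -0.82 ± 0.31. The SESA genes are near-identical, and reads may have been shared among them.

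**Figure D4:**
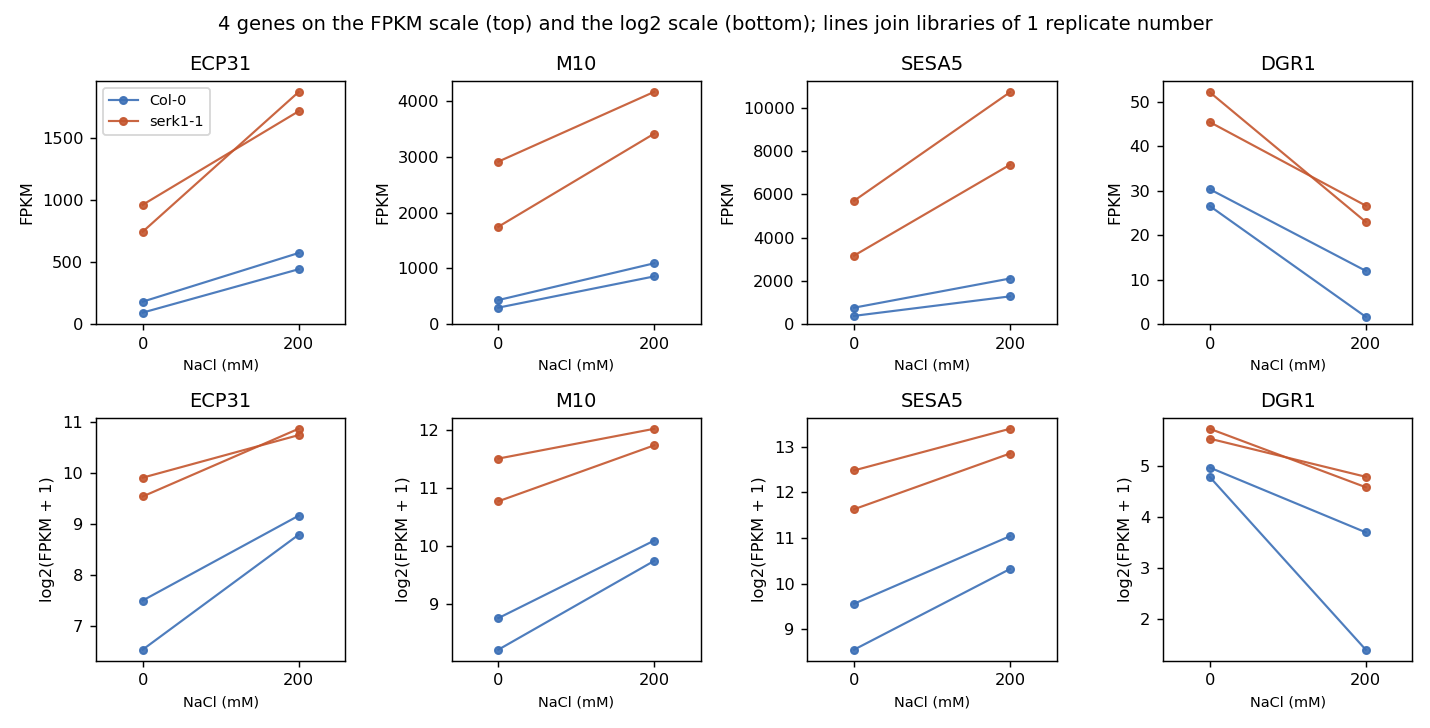
FPKM (top row, axes from 0) and log2(FPKM + 1) (bottom row, axes not from 0) of ECP31, M10, SESA5 and DGR1 without NaCl and with 200 mM NaCl; lines join the libraries of a replicate number in Col-0 (blue) and serk1-1 (orange), and the joining is for reading only. For the first 3 genes the serk1-1 lines are steeper in FPKM and flatter in log2 units, with FPKM differences of 570, 851 and 3489 against log2 differences of -0.88, -0.70 and -0.56.

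In the reverse direction, DGR1, a DUF642 cell wall protein, stood at 26.5 and 30.3 FPKM, then 1.62 and 12.0, in Col-0 and at 52.1 and 45.4, then 23.0 and 26.6, in serk1-1. The difference was 1.38 ± 0.88 log2 units (SE) and -2.35 FPKM. TK1A, a thymidine kinase that recycles nucleosides, stood at 33.4 and 60.9 FPKM, then 39.2 and 72.9, in Col-0 and at 3.21 and 2.17, then 4.12 and 4.01, in serk1-1, which is low in all 4 libraries. Its log2 difference of 0.23 ± 0.54 (SE) turns negative when Col-0 control replicate 2 or Col-0 NaCl replicate 1 is left out, while in FPKM it was -7.56.

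The largest FPKM differences below 0 were those of AT2G01021, a locus of the ribosomal DNA region listed at 0 in 1 serk1-1 library with NaCl, and of LCR67, a defensin-like protein, with -3678 FPKM. The polyubiquitin gene UBQ10 stood at 966 and 1546 FPKM, then 1477 and 2796, in Col-0 and at 654 and 683, then 631 and 672, in serk1-1. Its serk1-1 libraries hardly vary, and the difference was -897 FPKM and -0.77 ± 0.53 log2 units (SE). UBQ14 stood at 443 and 468 FPKM, then 1161 and 1324, in Col-0 and at 204 and 209, then 390 and 295, in serk1-1. Of the 5 polyubiquitin genes looked up after these values were seen, UBQ4, UBQ10, UBQ11 and UBQ14 had log2 differences of -0.57 to -0.77, and UBQ3 had -0.05, which is 0.08 with median-of-ratios scaling and 0.01 with quantile normalization. Their repeats are near-identical, so their shares of reads are uncertain.

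**Figure D5:**
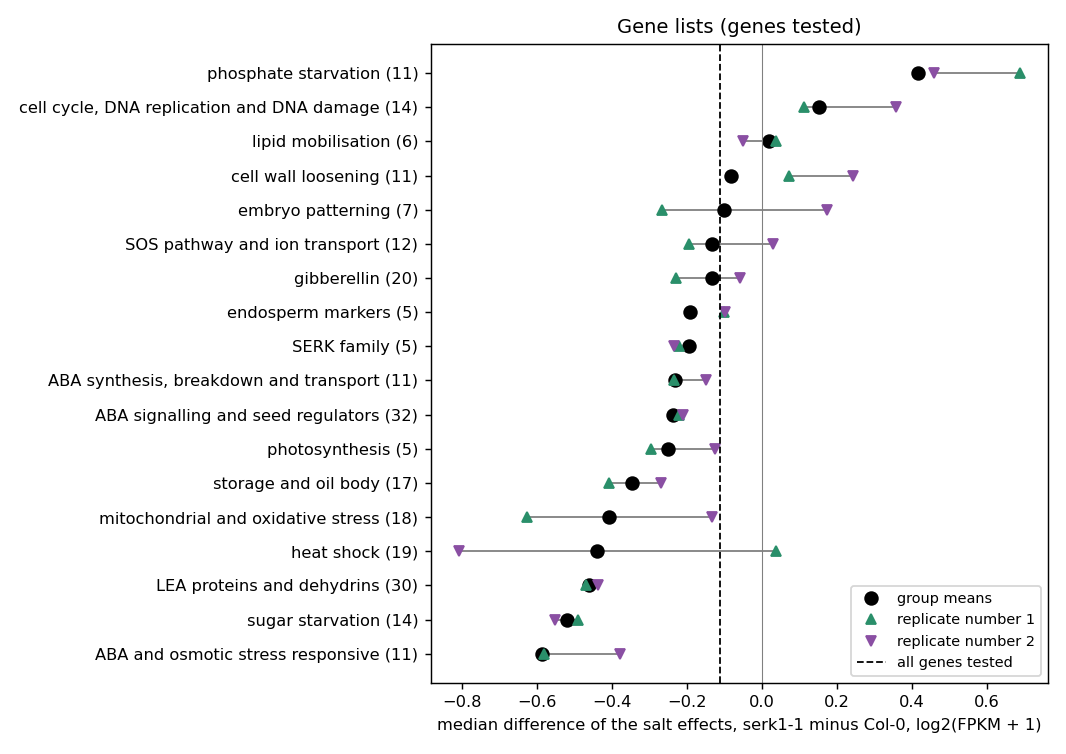
Median of the serk1-1 minus Col-0 differences on log2(FPKM + 1) (horizontal axis) for the 18 lists with at least 5 genes tested, with the number of genes in brackets; black circles come from group means, triangles from each replicate number, and the dashed line is the median of all genes tested, -0.11. Phosphate starvation lies farthest above that line at 0.42, ABA and osmotic stress, sugar starvation and LEA genes lie farthest below, and the 2 triangles of heat shock are far apart at 0.04 and -0.81. The lists were chosen with earlier results of these data known.

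Among genes of ABA breakdown, signal and response no member passed the adjusted test. Most had a difference below 0, as had 66.8% of all genes tested. The median was -0.23 over 11 genes of ABA synthesis, breakdown and transport (9 below 0), -0.24 over 32 signalling and seed regulator genes (22 below 0) and -0.59 over 11 ABA and osmotic stress responsive genes (9 below 0), beside -0.11 for all genes. The median of the responsive genes was -0.13 without Col-0 NaCl replicate 1, -0.14 without Col-0 control replicate 1, -0.16 without serk1-1 control replicate 1, -0.19 without serk1-1 NaCl replicate 2 and -0.32 without Col-0 NaCl replicate 2, and it was -0.37 with median-of-ratios scaling and -0.26 without a filter. On leaving out a library the other medians ran from -0.58 to -0.05 (synthesis, breakdown and transport) and from -0.46 to -0.05 (signalling). HAI3 and ABI1, phosphatases that restrain ABA signalling, had large values with wide spread. HAI3 stood at 7.83 and 3.15 FPKM, then 54.3 and 11.3, in Col-0 and at 2.53 and 1.06, then 5.91 and 1.42, in serk1-1. In Col-0 replicate 1 lies above replicate 2 in both media, by more with NaCl, and the difference was -1.51 ± 1.12 (SE). ABI1 stood at 11.2 and 4.04 FPKM, then 40.5 and 10.9, in Col-0 and at 4.55 and 2.87, then 7.25 and 4.60, in serk1-1, a difference of -0.95 ± 0.90 (SE).

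The transcription factors ABI3, ABI4 and ABI5, which carry the ABA response in seeds, had differences of 0.06 ± 0.30, 0.27 ± 0.53 and -0.51 ± 0.73 (SE). Each of the 3 values changes sign when single libraries are left out. ABI4 stood at 140 and 158 FPKM, then 63.5 and 83.8, in Col-0 and at 52.7 and 29.2, then 32.0 and 16.3, in serk1-1. ABI5 stood at 67.9 and 33.3 FPKM, then 135 and 46.9, in Col-0 and at 84.0 and 63.7, then 97.8 and 74.6, in serk1-1, where the groups overlap. ADH1, an alcohol dehydrogenase of osmotic and low-oxygen stress, had 1.11 ± 0.93 (SE), which became -0.01 without Col-0 NaCl replicate 1, the library with 527 FPKM against 1936 to 2704 in the other 7.

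The SOS pathway showed small differences. SOS1, the sodium exchanger of the plasma membrane, stood at 7.29 and 7.63 FPKM, then 9.98 and 7.91, in Col-0 and at 5.78 and 4.17, then 6.36 and 4.98, in serk1-1. Its difference was -0.06 ± 0.36 (SE) and turned to 0.06 with median-of-ratios scaling and to 0.09 with quantile normalization. SOS2 had -0.29 ± 0.36 and SOS3 -0.22 ± 0.42 (SE), intervals that do not exclude changes of up to about 1 log2 unit. NHX8, the closest relative of SOS1, had separated salt effects and a difference of -0.32 ± 0.34 (SE), and AHA2, a plasma membrane proton pump, had 0.70 ± 0.89. The median over 12 genes of the pathway and of ion transport was -0.13 beside -0.11 for all genes, and it was 0.01 with quantile normalization and -0.27 to 0.10 on leaving out a library. The 5 SERK genes had differences from -0.51 in SERK5 to -0.02 in SERK1, with BAK1, the main co-receptor of brassinosteroid signalling, at -0.24 ± 0.28 (SE).

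Heat shock genes had the least stable list value. The median over 19 genes was -0.44, but it was 0.04 in replicate number 1 and -0.81 in number 2, 0.91 without Col-0 NaCl replicate 2 and -1.75 without Col-0 NaCl replicate 1. Summed FPKM were 1418 and 4578, then 1617 and 11796, in Col-0 and 2550 and 1610, then 2687 and 2283, in serk1-1. Col-0 replicate 2 is the higher in both media. The HSP70 gene alone stood at 2583 FPKM in Col-0 NaCl replicate 2 against 282 to 979 in the other 7 libraries.

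Growth genes gave no common direction. Of 14 genes of cell cycle, DNA replication and DNA damage, 9 lay above 0, beside 33.2% of all genes tested. Their median was 0.15, and it was -0.11 without Col-0 NaCl replicate 1. For 11 cell wall loosening genes it was -0.08, with 1.1 without Col-0 control replicate 2 and -1.06 without Col-0 NaCl replicate 2. EXPA10, an expansin, stood at 986 and 803 FPKM, then 459 and 413, in Col-0 and at 265 and 69.7, then 217 and 76.2, in serk1-1, where replicates differ by more than the media, and its difference was 0.95 ± 0.93 (SE). The remaining lists had medians of -0.13 over 20 gibberellin genes, 0.02 over 6 lipid mobilisation genes, -0.10 over 7 embryo patterning genes, -0.19 over 5 endosperm markers and -0.25 over 5 photosynthesis genes, beside -0.11 for all genes. The embryo and lipid medians change sign under another scaling, to 0.07 with median-of-ratios scaling and to -0.02 with quantile normalization, respectively. On leaving out a library the gibberellin median ran from -0.35 to 0.19, that of the embryo genes from -0.15 to 0.08, that of the lipid genes from -0.22 to 0.11 and that of the endosperm markers from -0.25 to 0.16.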

How the data were processed

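The authors deposited FPKM per gene. Per the submitters' processing notes, the tools were FastQC 0.10.1, TopHat2 and Cufflinks 2.1.1, with TAIR10 as the build. Annotation, strand setting and treatment of multiply matching reads were not given in the sources here, and overlapping, antisense and near-identical genes are uncertain. Of 33279 loci, 32815 matched a TAIR10.1 gene table used only for names and overlaps. Overlaps are given above for a few loci only. PAP17, AT3G15450, ASN1, GLYI7, ABF4, MEE59, GDPD1, ABI1, RAB18, UBQ14 and SERK1 are among the other named genes that overlap another gene.

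The 15336 genes that reached 1 FPKM in 2 or more libraries were fitted on log2(FPKM + 1) with limma 3.58.1 in R 4.3.3, as 4 group means in 1 fit with a mean-variance trend. A pseudocount of 1 understates changes of low genes. A gene was called when its p, adjusted by Benjamini-Hochberg across these genes, was under 0.05. The salt effects and their difference share the same libraries and are not independent. The code was tested on simulated data. Figures used Python 3.11.15 with matplotlib 3.10.9.

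The members and the 20 gene lists were chosen with earlier results of these data known. Among genes with a group mean of at least 5 FPKM, the naming rule took the largest separated differences in each direction (8), genes of opposite salt effect (6) or scale-dependent sign (6), the 5 smallest p, the 5 largest FPKM differences, 2 genes per list and a fixed set. Added after values were seen were genes alike in 1 medium, the genes called in Col-0, polyubiquitin genes, list genes with an unadjusted p under 0.05, and the further list members named in the text. Alternatives covered the pseudocount, filter, scaling, limma's trend and robust options, the replicate number as a block, limma on FPKM, and leaving out each library.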

Additional observations from a re-analysis of the deposited data

Results flagged for a closer look

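The named genes in which every NaCl-minus-control value of Col-0 lay on 1 side of 0 and every value of serk1-1 on the other are listed here because the genotypes moved in opposite directions. With the lower salt effect in serk1-1, the differences in log2 units were -1.46 for AT1G49032, -2.31 for MAPR2, -1.43 for AT2G36030, -0.85 for ABF4, -1.06 for MEE59, -1.08 for AT4G37553 and -1.11 for MAF3. With the higher salt effect in serk1-1 they were 0.44 for AT1G48450, 0.41 for POP4, 0.96 for GDPD1, 0.68 for AT3G11460, 0.55 for YAB3 and 0.93 for AT5G07380. The limma test of the difference passed for none of them after adjustment (smallest adjusted p over all genes 0.99994). All 4 values of a genotype come from 2 libraries a group, and the genes were selected for this pattern, which 0.796% and 0.130% of all genes tested showed in the 2 directions.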

How the results depend on the processing

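The count of 0 genes that passed for the difference held under every alternative but 1. Without serk1-1 NaCl replicate 1 it was 2, AT2G01021 and AT2G40205, both listed at 0 in the only library then left in that group, so the range on leaving out a library was 0 to 2. Where an arm is left with 1 library, its spread is assumed to be that of the other groups. Genes that passed for the salt effect in Col-0 numbered 7, against 2 with a pseudocount of 0.1, 0 with a mean of at least 5 FPKM, 24 with median-of-ratios scaling, 14 with quantile normalization, 3 without the trend and 0 to 36 on leaving out a library. Without Col-0 NaCl replicate 2 it was 36, and it was 0 without any other library. In serk1-1 the count of 0 became 2 with a pseudocount of 0.1, 1 with either scaling and without the trend, and 0 to 2 on leaving out a library, with 2 without serk1-1 NaCl replicate 1.

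With the replicate number as a block (replicate block), 0 genes passed for the difference, with 775 at an unadjusted p under 0.05, while 1101 passed for the salt effect in Col-0 and 12 in serk1-1. With the block and median-of-ratios scaling the counts were 0, 1028 and 11. Deviations of same-numbered libraries from their group means correlated across genes with r from 0.40 to 0.72 over the 6 pairs of groups, but no label says that a number marks a shared batch, and with 2 libraries a group the 2 deviations mirror each other.

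Separated salt effects, 986 and 225 genes (serk1-1 below and above Col-0), became 641 and 475 with median-of-ratios scaling, 644 and 795 with quantile normalization, and 1583 and 424 without a filter. The second count was 139 with a mean of at least 5 FPKM. Leaving out a library leaves fewer pairwise values, which alone raises such counts, to 1656 to 4415 and 426 to 1181. Opposite salt effects, 122 and 20 genes (down and up in serk1-1), became 70 and 65 with median-of-ratios scaling and 65 and 89 with quantile normalization. The first was 79 with a mean of at least 5 FPKM, and the second 34 without a filter and 33 without ribosomal DNA loci. On leaving out a library they were 239 to 754 and 48 to 206. Scale-dependent signs, 183 and 47 genes (log2 below and above 0), were 184 to 350 and 61 to 194 on leaving out a library, and the second count was 88 with a pseudocount of 0.1, 96 with median-of-ratios scaling and 86 with quantile normalization. Among list medians, the sugar starvation median of -0.52 ran from -0.56 to -0.14. The cause of these shifts was not tested.

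Of 1992 values of named genes under the alternatives, 1922 kept direction and call and 69 changed sign, in 26 of 106 genes. With median-of-ratios scaling, with or without the block, the difference turned to 0.060 in SERK1, 0.060 in SOS1, 0.018 in WOX9, 0.18 in AT4G30097 and 0.083 in UBQ3. With quantile normalization these were 0.12, 0.085, 0.055, 0.23 and 0.0080, and without ribosomal DNA SERK1 was 0.029. On leaving out a library the difference spanned 0, with -0.0061 to 1.91 in EXPA10, -1.45 to 0.25 in NAC019, -0.38 to 0.35 in SERK1, -2.32 to 0.87 in GASA6, -0.0054 to 2.22 in ADH1, -1.42 to 0.42 in NCED9, -0.26 to 0.13 in SOS1, -0.047 to 1.86 in EXPA15, -1.99 to 0.17 in HSFA2, -0.27 to 0.065 in WOX9, -1.27 to 0.24 in ABI5, -0.20 to 0.73 in ABI4, -0.21 to 0.67 in TK1A. In the other genes it ran from -1.74 to 0.57 in HSP70, -1.54 to 1.05 in PAP85, -0.11 to 0.23 in ABI3, -2.77 to 1.41 in HSP23.6, -0.97 to 0.29 in CRC, -0.26 to 0.12 in AT4G30097, -0.71 to 0.61 in UBQ3, -0.30 to 0.023 in SDP1, -1.06 to 0.49 in EXPA2, -0.55 to 0.11 in SOS3, -0.073 to 0.32 in AT5G56980, -0.30 to 1.00 in AT5G61590 and -0.71 to 0.27 in RAB18.

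Depth is unknown, so counting error cannot be split from the rest of the spread between libraries, and 2 libraries a group leave 4 residual degrees of freedom. WOX2, CYP707A2, AT3G15450, AT3G16120, PAP17 and G3PP1 kept the sign of their difference under every alternative run. Each of them had separated salt effects, so leaving out a library could not change the sign, and those runs test nothing here.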
